A study of Homo sapiens with 3 samples.

Results

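ZNF genes carry the approved name "zinc finger protein" with a number, and most encode nuclear proteins that bind DNA through rows of C2H2 zinc fingers, in which a pair of cysteines and a pair of histidines hold a zinc ion. The genes described here were selected on 2 measured criteria in H9 cells: a symbol made of ZNF, a number and at most 1 further letter, and a reading of 6.0 or more (log2) on the total RNA array. Of 480 ZNF genes among the 18417 named genes of the array, 125 met both. Because the total RNA reading chose these genes, that reading and every difference from it are given as descriptions that support nothing.

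H9 is an established line of human embryonic stem cells. The cells were kept under pluripotent conditions, with no other treatment or genotype named in the labels. Each RNA pool (polysome-bound RNA, polysome-unbound RNA and total RNA) was hybridised to 1 Affymetrix whole-transcript gene array, so no difference below has a replicate error, a test or a p-value. A PureLink kit purified RNA of both polysome pools and an RNeasy Plus kit purified total RNA, so kit and RNA source cannot be told apart in any comparison with total RNA. The method of polysome separation and any pooling of cultures are not given in the sources used here.

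A messenger RNA that is being translated carries several ribosomes at once and travels with the polysomes, whereas an idle, nuclear or lightly loaded RNA is found in the unbound pool. The largest family among ZNF genes joins the fingers to a KRAB domain, which recruits the corepressor TRIM28 and, through it, the histone methyltransferase SETDB1. KRAB zinc finger proteins silence transposable elements and keep imprints in early embryonic cells. Many of their genes arose by duplication and lie side by side in clusters, above all on chromosome 19. Other ZNF genes encode transcription factors without a KRAB domain, and some encode proteins that bind RNA or serve ribosome assembly, splicing or the mitotic spindle.

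Promoters of the clustered genes resembled each other. RefSeq promoter windows of GRCh38.p14, from 250 bases before to 50 bases after the annotated start, were at hand for 110 of the 125 genes. The stretches below lie upstream of the start in genes of chromosome 19 that carry the word GTCACTCA. They are those of the carriers at least 2-fold lower in bound than unbound RNA, and were chosen by that value, as described further below. Each reads 5′ to 3′ on the strand of its gene, and capitals mark GTCACTCA and, where present, CCAATCA, which holds the CCAAT box.
ZNF91, chr19:23395540-23395617, minus strand: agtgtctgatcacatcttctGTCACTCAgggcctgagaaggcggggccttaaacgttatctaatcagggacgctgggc
ZNF208, chr19:22011006-22011083, minus strand: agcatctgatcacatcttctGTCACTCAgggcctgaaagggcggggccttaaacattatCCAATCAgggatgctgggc
ZNF675, chr19:23687246-23687323, minus strand: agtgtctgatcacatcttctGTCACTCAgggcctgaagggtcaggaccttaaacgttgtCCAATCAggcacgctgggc
ZNF626, chr19:20661639-20661716, minus strand: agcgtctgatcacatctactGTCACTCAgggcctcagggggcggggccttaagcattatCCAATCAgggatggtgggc
ZNF737, chr19:20565849-20565926, minus strand: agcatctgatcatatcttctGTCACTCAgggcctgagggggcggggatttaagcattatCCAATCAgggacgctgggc
ZNF257, chr19:22052344-22052421, plus strand: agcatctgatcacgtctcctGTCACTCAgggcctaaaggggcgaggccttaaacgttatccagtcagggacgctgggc
ZNF564, chr19:12551553-12551630, minus strand: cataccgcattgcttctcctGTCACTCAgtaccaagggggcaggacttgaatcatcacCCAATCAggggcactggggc
ZNF627, chr19:11597331-11597408, plus strand: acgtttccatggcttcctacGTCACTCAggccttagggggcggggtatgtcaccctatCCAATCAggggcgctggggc

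Compared position by position over 78 bases, without gaps, the ZNF91 stretch was identical to that of ZNF208 at 91.0% of positions, to ZNF675 at 88.5%, to ZNF626 and ZNF737 at 87.2% each and to ZNF257 at 85.9%. The carriers ZNF100 and ZNF730 of the same interval, not printed, matched at 83.3% and 76.9%. These 8 genes lie between positions 20565849 and 23687323 of chromosome 19. ZNF627 and ZNF564, which lie elsewhere on the chromosome, matched ZNF91 at 48.7% and 44.9% of positions and carry both marked words.

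A different sequence feature, a C followed by at least 4 pyrimidines exactly at the annotated start, marked 8 of the 110 genes. Such a start resembles the terminal oligopyrimidine tract of ribosomal protein messenger RNAs, whose ribosome loading follows nutrient signalling. The first 25 transcribed bases of 5 carriers follow, 5′ to 3′ on the strand of the gene, with the pyrimidine tract in capitals.
ZNF581, chr19:55643649-55643673, plus strand: CTCTTTCggccggcgccgccagttc
ZNF358, chr19:7516103-7516127, plus strand: CCCTCTCgctccccgggagcgcctg
ZNF277, chr7:112206695-112206719, plus strand: CCCTTTTCTTTTCTgccgggtaatg
ZNF836, chr19:52171597-52171621, minus strand: CTTTCTgccctttcccttgcgggtc
ZNF426, chr19:9538621-9538645, minus strand: CCTTTTgtgacgccggctgtgagcg

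Total RNA readings of the 125 genes ran from 6.0 to 9.31 with a median of 6.71, bound RNA readings from 6.30 to 10.12 with a median of 7.78, and unbound RNA readings from 5.49 to 9.63 with a median of 7.0. On each array all 125 lay above the array's background limit, the 95th percentile of 480 tissue-restricted genes, which was 4.40 on the bound, 3.56 on the unbound and 3.76 on the total RNA array. Of the genes, 124 are protein coding and 1, ZNF271P, is a transcribed pseudogene.

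The members nearest the threshold were ZNF74 at 6.0004, ZNF747 at 6.01, ZNF180 at 6.02 and ZNF273 at 6.03. Just below it lay ZNF318 at 5.98, ZNF780A at 5.97, ZNF574 at 5.96 and ZNF486 at 5.96. In all, 355 ZNF genes read below 6.0, of which 286 still passed a level filter (a mean over the 3 arrays above 3.84).

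The labelled cell type was checked in total RNA. Of 13 measured markers of pluripotent cells, 12 read 6.0 or more, with a median of 9.06 over the 13. Of 9 fibroblast or feeder markers 3 read 6.0 or more, with a highest reading of 10.11 for COL1A2, a collagen chain. Of 7 trophoblast and amnion markers 1 did, TFAP2A at 6.16, and of 8 germ layer and 2 blood markers none did. The marker lists also differed between the arrays. In relative differences, the 12 pluripotent markers past the level filter had a median of -0.94 for bound minus total and -1.0 for unbound minus total RNA, with 6 at least 2-fold lower in each. The 6 trophoblast and amnion markers past it had medians of 0.86 and 1.05, with 2 and 3 at least 2-fold higher, and the 6 germ layer markers had medians of -0.07 and 0.15, with 2 higher in each. TFAP2A read 8.71 in bound, 8.16 in unbound and 6.16 in total RNA, and the neural marker PAX6 read 8.02, 7.48 and 5.27. Between bound and unbound RNA, none of the trophoblast, amnion and germ layer markers past the filter was 2-fold apart. The part of other cells in the ZNF readings was not tested.

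The arrays differ in overall brightness, and the 3 deposited columns do not share a distribution. The 12057 genes past this filter had a median reading of 7.23 in bound, 5.97 in unbound and 6.20 in total RNA. Differences are therefore given as relative differences, from which the gap between the array medians was taken (1.26 for bound minus unbound, 1.03 for bound minus total and -0.23 for unbound minus total). A relative difference says where a gene stands against the typical gene of the same pair of arrays, not how many of its molecules were in a pool. A gene was counted as apart at 2-fold, a relative difference of 1.

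Against the typical gene, ZNF genes leaned towards the unbound pool. The median relative bound minus unbound difference of the 125 genes was -0.38, and 87 of them lay below 0. At least 2-fold lower in bound than unbound RNA were 28 genes (22.4%), against 9.91% of all genes past the filter. At least 2-fold higher were 5 (4.0%), against 6.36% of all genes. The median over all 12057 genes was -0.07, and over the 6333 other genes with total RNA of 6.0 or more it was 0.07, with 10.3% of those lower and 8.51% higher.

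The lean did not begin at the threshold of 6.0. The 286 dimmer ZNF genes past the filter had a median of -0.40, with 46 lower (16.1%) and 3 higher (1.05%). Among the 125, the median was -0.57 for the 47 genes with total RNA between 6.0 and 6.5, -0.25 for the 30 between 6.5 and 7.0, -0.33 for the 36 between 7.0 and 8.0 and 0.16 for the 12 between 8.0 and 10. In the same bins the medians of other genes ran from 0.04 to 0.11. The shares at least 2-fold lower in these bins were 27.7%, 23.3%, 16.7% and 16.7%, where other genes gave 10%, 10.2%, 7.97% and 8.98%. The 12 genes of the top bin thus had a median above 0, with 2 of them 2-fold lower.

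**Figure D1:**
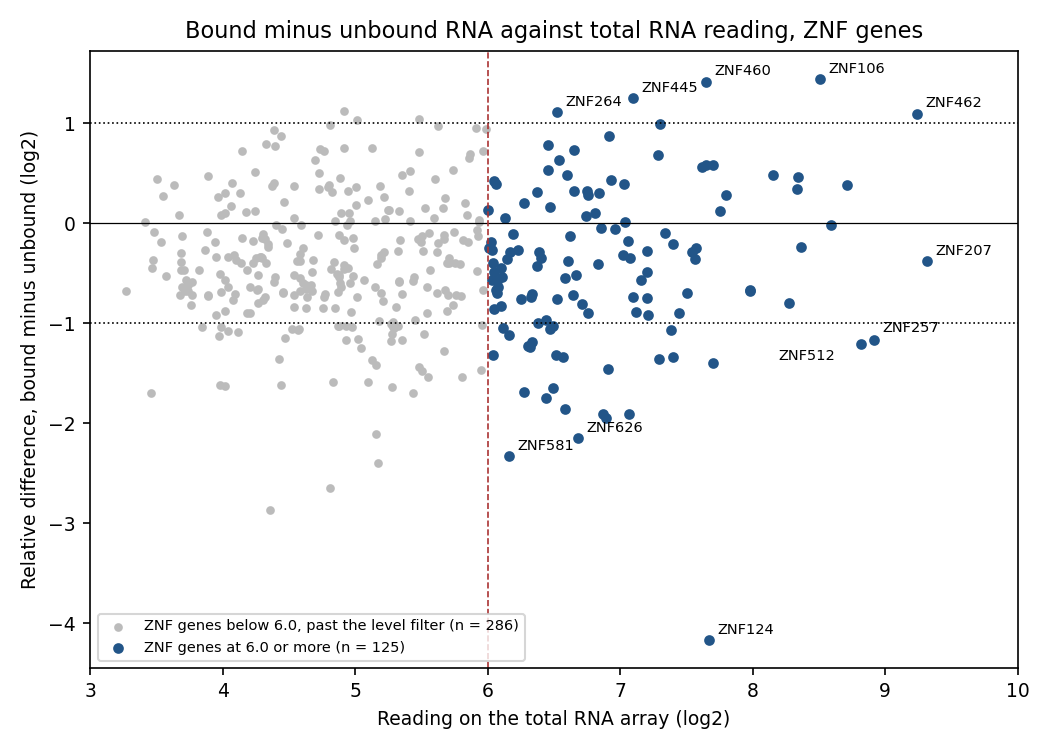
Relative difference between bound and unbound RNA (vertical, log2) against the reading on the total RNA array (horizontal, log2) for 125 ZNF genes at 6.0 or more (dark) and 286 dimmer ZNF genes past the level filter (grey), 1 point per gene and 1 array per pool. The dashed line is the threshold of 6.0 and the dotted lines mark 2-fold, and 87 of the 125 dark points lie below 0, with ZNF124 far below the rest at -4.16.

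The direction rests on the centring. As deposited, the bound readings of the 125 genes were mostly the higher ones, with a median difference of 0.88 against 1.34 for other genes with total RNA of 6.0 or more. On that scale 2 ZNF genes were 2-fold lower in bound RNA and 50 (40.0%) were 2-fold higher, where all genes gave 1.56% and 61.4%. With quantile normalization the ZNF median was -0.39 with 27 lower and 6 higher, against 8.71% and 8.14% of all genes. With the trend of the difference on the level removed by lowess, it was -0.43 with 27 lower and 5 higher, against 9.33% and 6.38%. Under each of these scalings the ZNF median stayed below that of the other genes with total RNA of 6.0 or more.

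ZNF124, a KRAB zinc finger gene of a cluster near the end of the long arm of chromosome 1, stood furthest apart. It read 6.45 in bound, 9.35 in unbound and 7.67 in total RNA, a relative difference of -4.16. Its unbound reading was the highest of the 3 and its bound reading the lowest, so the direction is the same as deposited. The next gene, ZNF581, lay at -2.33.

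ZNF581 read 6.63 in bound, 7.70 in unbound and 6.16 in total RNA. ZNF358 read 7.49, 8.08 and 6.58, a relative difference of -1.85. ZNF277, whose product binds the ribosomal protein RPS2, read 6.58, 7.01 and 6.27, a difference of -1.69. All 3 carry the pyrimidine start printed above, and in all 3 the unbound reading was the highest.

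ZNF626 and ZNF91 come from the clustered genes whose promoter stretches are printed above. ZNF626 read 7.93 in bound, 8.82 in unbound and 6.68 in total RNA (-2.15). ZNF91, a KRAB protein that silences SVA retrotransposons, read 8.06, 8.75 and 6.90 (-1.95). In both genes bound and total RNA were close after centring, and the unbound reading stood out.

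The rest of the 12 lowest were ZNF251 at -1.91, ZNF776 at -1.91, ZNF564 at -1.75, ZNF830 at -1.65, ZNF737 at -1.46 and ZNF280C at -1.40. For example, ZNF776 read 8.37 in bound, 9.01 in unbound and 6.87 in total RNA, and ZNF564 read 7.19, 7.68 and 6.44. In each of the 12 the unbound reading exceeded the bound reading before any centring.

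At the other end were the 5 genes at least 2-fold higher in bound RNA. ZNF106, an RNA-binding protein with a part in splicing, read 9.14 in bound, 6.44 in unbound and 8.51 in total RNA, a relative difference of 1.45. ZNF460 read 9.87, 7.19 and 7.65 (1.42). ZNF445, a KRAB protein that keeps imprinted marks together with ZFP57, read 8.35, 5.84 and 7.10 (1.25). In ZNF106 and ZNF445 the unbound reading was well below both others, whereas in ZNF460 the bound reading was well above both.

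ZNF264 read 8.42 in bound, 6.05 in unbound and 6.52 in total RNA (1.11). ZNF462, a large zinc finger protein needed in neural development, read 10.12, 7.76 and 9.24 (1.10). The other 7 of the 12 highest stayed within 2-fold: ZNF518A at 0.99, ZNF652 at 0.88, ZNF8 at 0.78, ZNF117 at 0.74, ZNF24 at 0.68, ZNF711 at 0.63 and ZNF770 at 0.58.

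**Figure D2:**
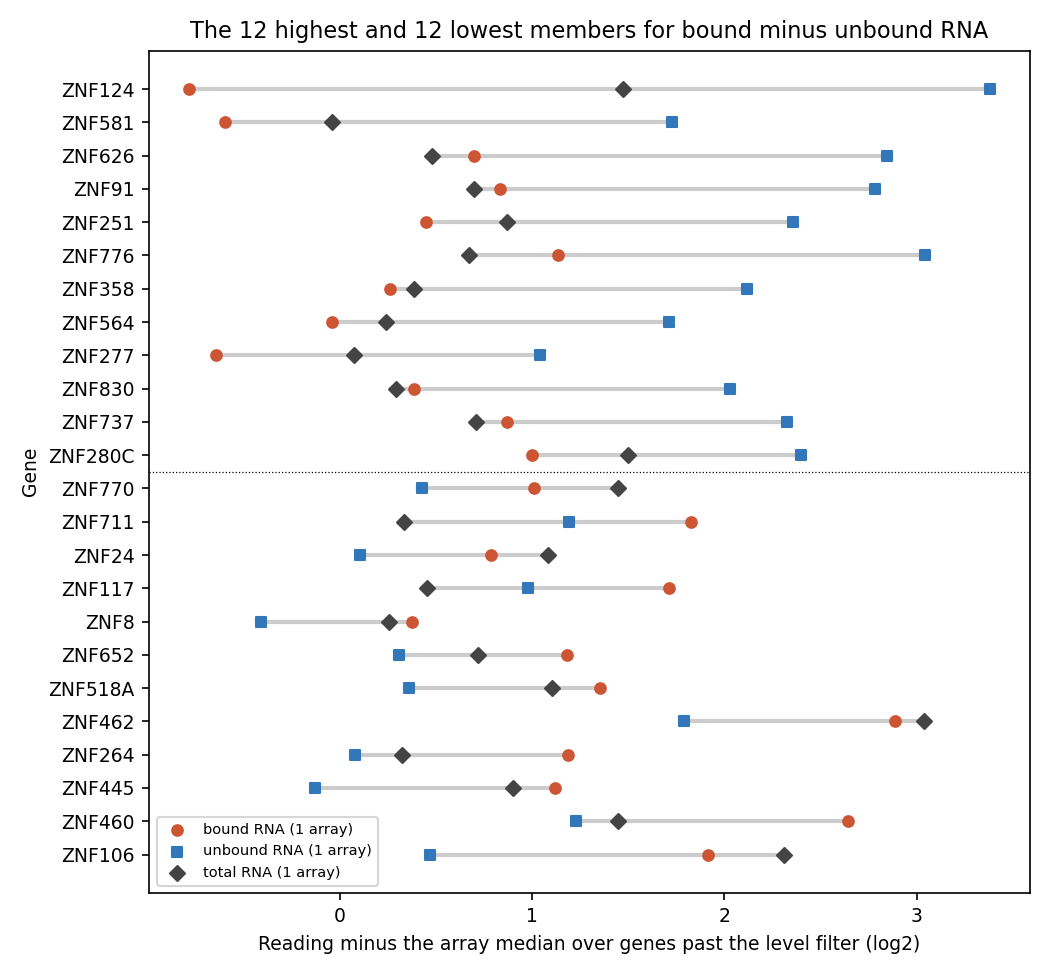
Readings of the 12 lowest and 12 highest ZNF genes for bound minus unbound RNA, each minus its array's median over genes past the level filter (horizontal, log2), with 1 point per array (circle bound, square unbound, diamond total RNA) and a grey bar from the lowest to the highest. In the upper 12 genes the unbound point lies furthest right, and in the lower 12 it lies left of the bound point.

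Roles within the family were read through lists drawn up for this work with earlier results of these data known. Repressors of transposons and keepers of imprints pointed in both directions. Of 9 listed genes 8 were measured and 4 reached 6.0: ZNF91 at -1.95, ZNF649 at -0.81, ZNF808 at 0.53 and ZNF445 at 1.25, with a median of -0.14. ZNF649 read 7.76 in bound, 7.31 in unbound and 6.71 in total RNA. ZNF808, a KRAB protein needed for human pancreas development, read 8.68, 6.88 and 6.45. The 4 dimmer ones included ZNF93, which silences LINE-1 elements and read 5.83 in bound, 6.67 in unbound and 5.16 in total RNA, a relative difference of -2.10. ZNF274 lay at -0.35 and ZNF10 at -0.54. ZNF676 did not pass the level filter.

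All 7 listed ZNF genes with ties to pluripotency reached 6.0, and their median was -0.32. ZNF589 at -1.34 and ZNF143 at -1.07 were 2-fold lower in bound RNA and ZNF462 at 1.10 was 2-fold higher. These are 28.6% and 14.3% of the 7, beside 9.91% and 6.36% of all genes. ZNF143, an activator of small nuclear RNA genes and of many housekeeping promoters, read 7.32 in bound, 7.12 in unbound and 7.38 in total RNA. As deposited its difference was 0.20, so its direction turns with the scaling. ZNF281, a regulator of NANOG, lay at -0.06, ZNF322 at -0.29, ZNF483 at -0.32 and ZNF398, which works with SMAD3, at -0.70.

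Transcription and chromatin regulators without a KRAB domain lay close to the typical gene. Of 29 listed and measured genes 23 reached 6.0, with a median of -0.06. Of these, 3 were lower (13.0%) and 1 was higher (4.35%), near the 9.91% and 6.36% of all genes. The lower ones were ZNF512 at -1.20, ZNF143 at -1.07 and ZNF219 at -1.03, and the higher one was ZNF462. ZNF512 read 9.69 in bound, 9.63 in unbound and 8.82 in total RNA, and its relative difference shrank to -0.96 with quantile normalization or lowess and to 0.06 as deposited. ZNF217, an oncoprotein of the CoREST complex, read 9.26, 8.02 and 8.59, a relative difference of -0.02. ZNF292 lay at 0.47 and ZNF652 at 0.88.

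Among 12 listed genes for RNA binding, ribosome assembly and mitosis, 9 reached 6.0, with a median of 0.21. Of these, 1 was lower and 1 higher (11.1% each), beside 9.91% and 6.36% of all genes. ZNF830, a protein of splicing and genome maintenance in the early embryo, was the lower one, with readings of 7.61 in bound, 8.0 in unbound and 6.49 in total RNA. ZNF106 was the higher one. ZNF330 lay at 0.48, ZNF638 at 0.34, ZNF326, a subunit of the DBIRD complex at the elongating polymerase, at 0.32 and ZNF706 at 0.21.

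ZNF346, a binder of double-stranded RNA, lay at -0.37, and ZNF207, a spindle protein that binds BUB3, at -0.38. ZNF622, a factor for the large ribosomal subunit, lay at -0.55 with readings of 6.78 in bound, 6.07 in unbound and 6.58 in total RNA. The 3 dimmer genes were ZNF318 at 0.94, ZNF598, which senses collided ribosomes, at -0.02 and ZNF593 at -0.51.

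Of 22 listed genes with a SCAN domain, a dimerisation module, 20 were measured and only 4 reached 6.0: ZNF397 at -0.36, ZNF483 at -0.32, ZNF24 at 0.68 and ZNF445 at 1.25. The 32 genes in the lists of KRAB-free regulators and RNA genes had a median of -0.04, with 4 lower (12.5%) and 2 higher (6.25%), and a median total RNA reading of 7.30. The 93 genes in neither had a median of -0.52, with 24 lower (25.8%) and 3 higher (3.23%), and a median total RNA reading of 6.60. The lists were drawn up with this pattern known, so the contrast is a description. Which of these 93 encode a KRAB domain was not analysed here.

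As a set, listed genes of the KRAB corepressor and its heterochromatin machinery did not lean the same way. Of 23 measured genes 22 passed the filter, with a median of 0.07. None was 2-fold lower and 3 (13.6%) were higher in bound than unbound RNA, beside 9.91% and 6.36% of all genes. TRIM28, the corepressor itself, read 10.11 in bound, 9.38 in unbound and 10.34 in total RNA, a relative difference of -0.53. SETDB1 lay at -0.76, so both TRIM28 and SETDB1 lay below the ZNF median of -0.38. The chromodomain helicase CHD3 lay at 2.02.

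Place in the genome went with the difference among the brighter ZNF genes. The 52 genes on chromosome 19 had a median bound minus unbound difference of -0.68, with 15 lower (28.8%) and 2 higher (3.85%). The 73 genes elsewhere had -0.29, with 13 lower (17.8%) and 3 higher (4.11%). For other genes with total RNA of 6.0 or more the medians were 0.09 for 312 genes on chromosome 19 and 0.07 for 6021 elsewhere, with 13.1% and 10.2% lower and 6.73% and 8.60% higher. Among dimmer ZNF genes they were -0.39 for 148 genes on chromosome 19 and -0.43 for 138 elsewhere, so the gap seen above 6.0 was not seen below it. The 52 brighter genes on chromosome 19 also had a lower median total RNA reading, 6.59, than the 73 elsewhere, 6.93. The part of this level in the gap was not tested.

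Having another ZNF gene as the nearest protein-coding gene in the RefSeq order, on either side, gave a similar split. The pseudogene ZNF271P has no place in that order and was left out. The 70 genes with such a neighbour had a median of -0.57, with 17 lower (24.3%) and 2 higher (2.86%). The 54 without had -0.24, with 11 lower (20.4%) and 3 higher (5.56%). Median total RNA readings were 6.61 with such a neighbour and 7.03 without. Both sets overlap with the chromosome split, since 48 of the 52 genes on chromosome 19 have a ZNF neighbour. Away from chromosome 19, 22 genes with a ZNF neighbour had a median of -0.42 and 50 without had -0.24. The shares at least 2-fold lower went the other way there, with 3 of the 22 and 10 of the 50. At least 2-fold higher were 1 of the 22 and 2 of the 50. Genomic span did not go with the difference, with a Spearman correlation of 0.02 across the 125 genes, which are not independent replicates.

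**Figure D3:**
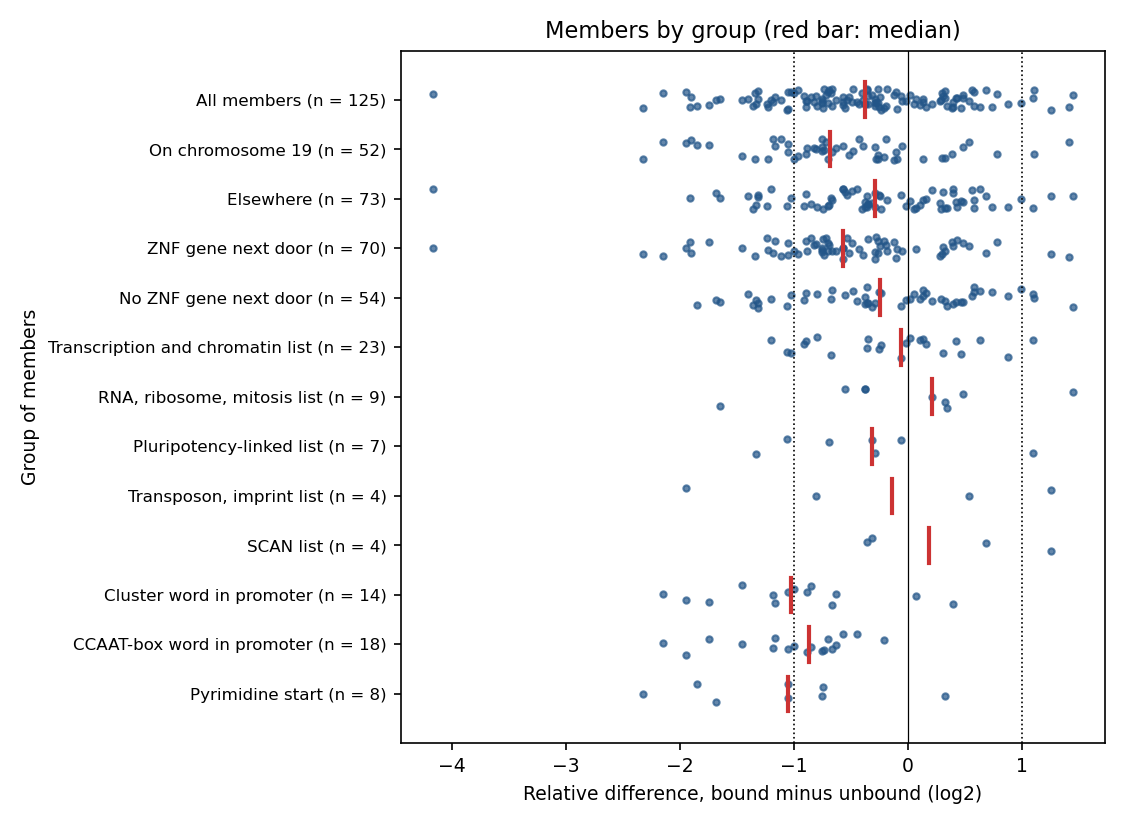
Relative bound minus unbound difference (horizontal, log2) of the ZNF genes with total RNA of 6.0 or more, 1 point per gene, by group (vertical, number of genes in brackets), with the group median as a red bar and 2-fold as dotted lines. Groups overlap, and the medians run from -1.05 for the 8 genes with a pyrimidine start to 0.21 for the 9 genes of the RNA, ribosome and mitosis list.

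Promoter words were counted on both strands of the window, in at least 1 window of a gene. GTCACTCA, called the cluster word here, and TCCAATCA, a CCAAT box with its flanks, were picked after looking at these promoters, so their shares are no independent evidence. The cluster word was in 14 of 110 genes (12.7%), in 12.4% of 283 dimmer ZNF genes, in 1.28% of 5322 other genes with total RNA of 6.0 or more and in 1.40% of all 27305 genes with a window. TCCAATCA was in 18 genes (16.4%), in 15.9% of dimmer ZNF genes and in 1.90% of the other genes. Both were thus as frequent in dim as in bright ZNF genes.

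The words also kept their place. On the strand of the gene the cluster word began at 13 sites between positions -142 and -65 from the start, with a median of -125. Its only site on the opposite strand was in ZNF212. TCCAATCA began at 26 sites of 18 genes on the strand of the gene, between positions -104 and -24, with a median of -59. CCGGAAG, the core bound by ETS factors, was in 48 genes (43.6%), in 41.3% of dimmer ZNF genes, in 24.8% of the other genes and in 12.2% of all genes.

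**Figure D4:**
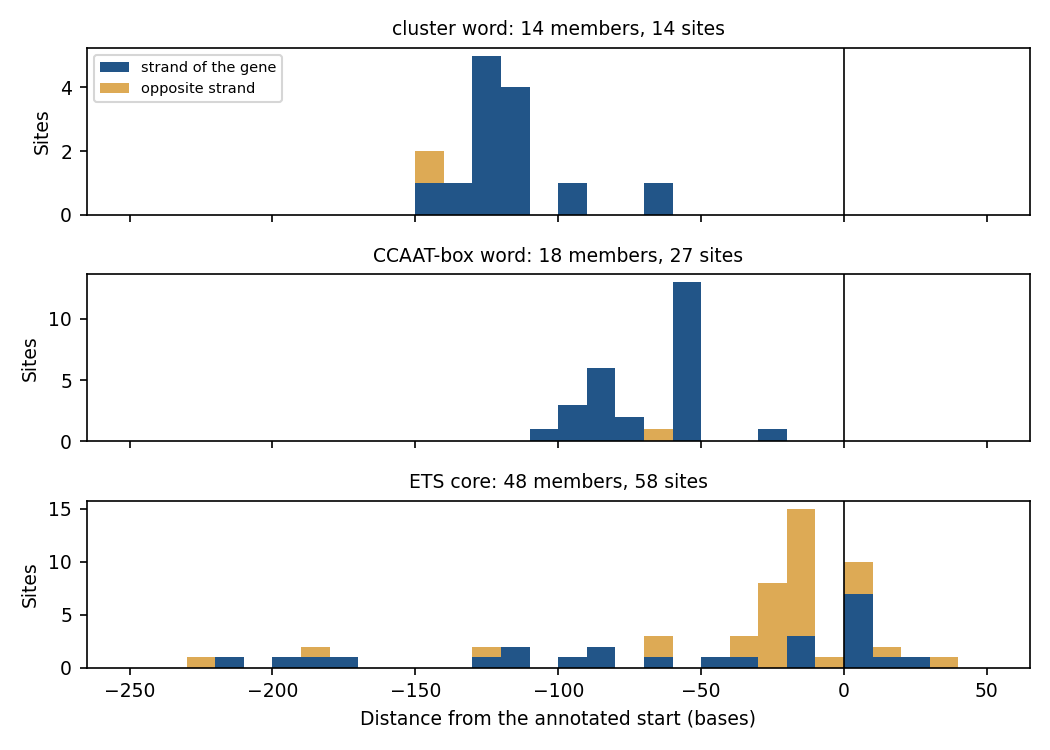
Number of sites of 3 promoter words (vertical) by distance from the annotated start (horizontal, bases, bins of 10) in ZNF genes with total RNA of 6.0 or more, with the strand of the gene dark and the opposite strand light. The cluster word has 14 sites in 14 genes, nearly all dark and grouped around position -125, the CCAAT-box word has 27 sites in 18 genes, and the ETS core has 58 sites in 48 genes that gather next to the start.

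Carriers of the cluster word lay low in bound RNA. Their median bound minus unbound difference was -1.03, with 12 of 14 below 0, 8 at least 2-fold lower and none 2-fold higher. Over all genes past the filter 9.91% were lower and 6.36% higher. The 96 genes with a window but without the word had a median of -0.35, with 18 lower and 4 higher. The carriers not below 0 were ZNF670 at 0.07 and ZNF212, whose word is on the opposite strand, at 0.39. Of the genes whose stretches are printed above, ZNF627 read 7.47 in bound, 7.40 in unbound and 6.33 in total RNA (-1.19). ZNF257 read 9.59, 9.50 and 8.92 (-1.17, within 2-fold at -0.94 with quantile normalization and -0.96 with lowess), and ZNF675 lay at -1.0.

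Of the 18 carriers of TCCAATCA every one lay below 0, from -2.15 to -0.21, with a median of -0.87. Of these, 8 were at least 2-fold lower, where all genes gave 9.91%. They are the same 8 genes that were lower among carriers of the cluster word. All carriers of the cluster word except ZNF670 and ZNF212 are among the 18, so both words mark largely the same genes. The 92 genes without TCCAATCA had a median of -0.29. The same order was seen in dimmer ZNF genes, with a median of -0.68 in 37 carriers and -0.38 in 197 others for TCCAATCA, and of -0.68 in 28 carriers and -0.40 in 206 others for the cluster word. Among other genes with total RNA of 6.0 or more the cluster word did not go with the difference, with medians of 0.08 both in 68 carriers and in the rest. Carriers among ZNF genes are related copies and are not independent of each other.

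The ETS core went with a smaller gap. Its 48 carriers had a median of -0.69, and the 62 genes without it had -0.29. In each set 13 genes were lower and 2 higher, where all genes gave 9.91% and 6.36%. The core is present at both ends of the range, in ZNF124 at -4.16 and in ZNF460 at 1.42. In other genes with total RNA of 6.0 or more the medians were 0.03 with the core and 0.10 without.

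Carriers of a pyrimidine start had a median of -1.05, with 7 of 8 below 0. Of the 8, 5 were at least 2-fold lower, where all genes gave 9.91%. The 102 genes without such a start had a median of -0.36. A pyrimidine start was found in 7.27% of the ZNF genes with a window, in 3.89% of dimmer ZNF genes, in 8.25% of the other genes with total RNA of 6.0 or more, and in 34 of 46 ribosomal protein genes (73.9%). In the other genes the medians were -0.48 for 439 carriers and 0.12 for 4883 without, whereas in dimmer ZNF genes they were -0.40 for 9 carriers and -0.41 for 225 without. ZNF426 was the carrier above 0, at 0.32.

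The shares of further words were closer to those of other genes. GGGCGG, the GC box, was in 74.5% of the ZNF genes and 78.6% of the other genes. TATAAA was in 6.36% and 7.93%, the E-box CACGTG in 9.09% and 13.3%, TGACGTCA in 6.36% and 4.38%, the NRF1 core GCGCATGCG in 4.55% and 5.04%, and ACTACAA, part of the motif of ZNF143, in 8.18% and 5.0%. Few ZNF genes carry most of these words, and their bound minus unbound medians went both ways. The 7 carriers of TATAAA had a median of -1.24, against -0.37 for the 103 genes without, whereas the 10 dimmer ZNF carriers had -0.36. Of the 7, 5 were at least 2-fold lower, where all genes gave 9.91%, and none of the 10 dimmer carriers was. The median was -0.75 in 10 carriers of the E-box, -0.49 in 9 of ACTACAA, -0.47 in 82 of the GC box, -0.09 in 7 of TGACGTCA and 0.34 in 5 of the NRF1 core. A match is a run of letters and not a measured binding site.

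Against total RNA, bound and unbound RNA differed in which ZNF genes stood out. Both comparisons share the total RNA array that chose the genes, so nothing is read from their counts. In bound minus total RNA the median relative difference was 0.04, with 3 genes lower (2.40%) where all genes gave 6.43%, and 5 higher (4.0%) where all genes gave 2.66%. As deposited, 1 was lower and 70 were higher (56.0%), beside 0.572% and 40.1% of all genes.

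The 3 lower genes were ZNF124 at -2.26, ZNF483 at -1.13 and ZNF143 at -1.10. The 5 higher genes were ZNF711, an X-linked gene of intellectual disability, at 1.49, ZNF117 at 1.26, ZNF808 at 1.19, ZNF460 at 1.19 and ZNF83 at 1.18. ZNF711 read 9.06 in bound, 7.16 in unbound and 6.53 in total RNA. ZNF117 read 8.94, 6.95 and 6.65. In both, each polysome pool stood above total RNA after centring.

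In unbound minus total RNA the median relative difference was 0.39, with 4 genes lower (3.20%) where all genes gave 10%, and 22 higher (17.6%) where all genes gave 8.08%. Scaling moved the split: as deposited it was 7 lower and 16 higher, beside 16.0% and 5.42% of all genes. Quantile normalization gave 1 lower and 30 higher (24.0%), beside 8.05% and 8.63%, and lowess gave 1 lower and 36 higher (28.8%), beside 7.56% and 9.40%. Higher genes made up 84.6% of the ZNF genes apart after centring, 69.6% as deposited, 96.8% with quantile normalization and 97.3% with lowess. Over all genes past the filter these shares were 44.7%, 25.3%, 51.8% and 55.4%.

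The highest were ZNF776 and ZNF626 at 2.37 each, ZNF91 at 2.09 and ZNF124 and ZNF83 at 1.91 each. The 4 lower genes were ZNF106 at -1.84, ZNF462 at -1.25, ZNF445 at -1.03 and ZNF770 at -1.02. ZNF83 read 8.85 in bound, 8.31 in unbound and 6.64 in total RNA, so both pools exceeded total RNA. Marker lists went both ways in the same comparison. The trophoblast and amnion list had a median of 1.05, with GATA3 at 1.37 and TFAP2A at 2.23. The germ layer list had a median of 0.15, and its 2 genes at least 2-fold higher were PAX6 at 2.44 and AFP at 2.13. The fibroblast or feeder list had a median of -0.72, with 3 at least 2-fold lower, and pluripotent markers had a median of -1.0. The part of these cells in the ZNF differences was not tested. By place, the ZNF median was 0.65 for 52 genes on chromosome 19, with 15 of the 22 higher genes. It was 0.12 for 73 genes elsewhere, with 7 higher. In dimmer ZNF genes past the filter the medians were 0.51 and 0.47, with 27 of 148 and 29 of 138 higher. Of other genes with total RNA of 6.0 or more, 23 of 312 on chromosome 19 and 328 of 6021 elsewhere were higher. All genes past the filter gave 8.08%.

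Among these 22 genes, 18 also lay at least 2-fold lower in bound than unbound RNA, and 20 were within 2-fold between bound and total RNA. Of the 28 genes lower in bound than unbound RNA, 26 were within 2-fold between bound and total RNA. ZNF124 and ZNF143 were the others, with bound RNA also 2-fold below total RNA. The comparisons share the 1 unbound array as well as the total RNA array, so these overlaps follow in part from the arithmetic and support nothing. Of all 125 genes, 22.4% were lower in bound than unbound RNA (9.91% of all genes). Only 2.40% were 2-fold lower and 4.0% higher in bound than total RNA (6.43% and 2.66% of all genes).

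**Figure D5:**
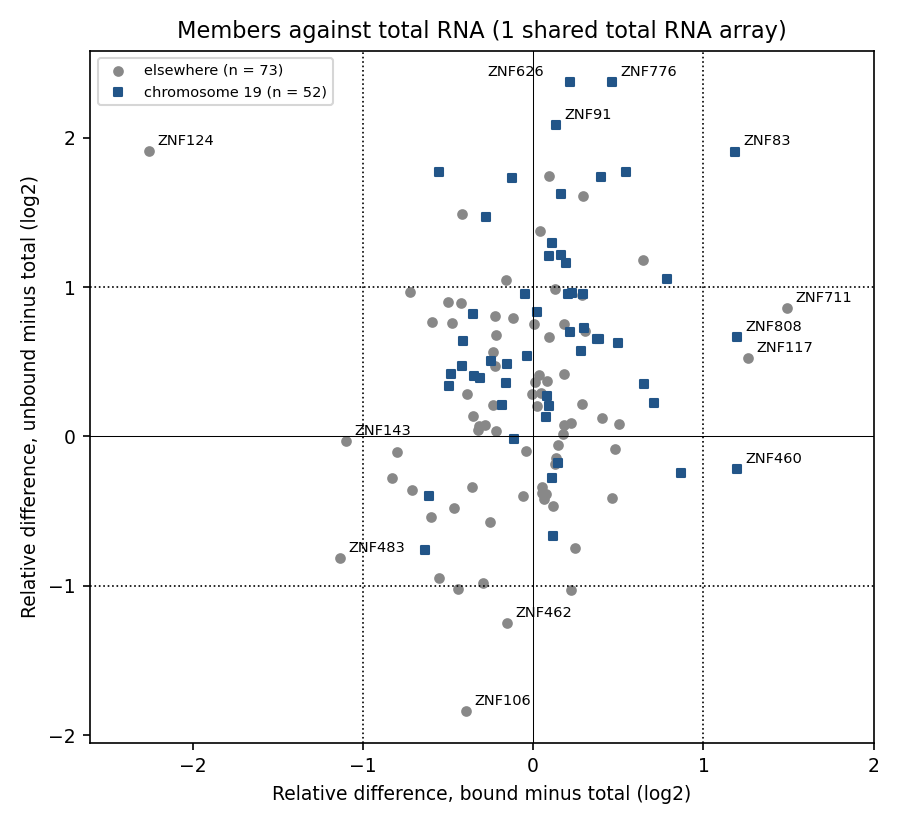
Relative difference of unbound minus total RNA (vertical, log2) against bound minus total RNA (horizontal, log2) for the 125 ZNF genes, with 52 genes on chromosome 19 as squares and 73 elsewhere as circles, and 2-fold as dotted lines. The points spread upwards more than sideways, with 22 genes above 1 on the vertical axis and 5 beyond 1 on the horizontal axis, and both axes share the 1 total RNA array.

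Probe sets of related genes can share sequence, and this touches the clustered genes most. Of the 125 genes 9 are also listed on probe sets that name several genes, which were not used, among them ZNF208, ZNF43, ZNF564 and ZNF730. The part of shared probe sequence in the differences was not tested. For 8 genes with several probe sets the one with the highest mean was used. ZNF626 gave -2.15 on it and -0.66 on its dimmer one, ZNF257 gave -1.17 and -0.43, ZNF277 gave -1.69 and -0.64, and ZNF618 gave 0.42 and 1.42. Both probe sets of ZNF322 read similarly, at -0.29 and -0.39.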

How the data were processed

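RNA of polysome-bound, polysome-unbound and total pools of H9 cells was measured on 1 array each. The authors deposited log2 values per probe set, made with Partek 6.5 and RMA per the submitters' processing notes. The scaling between arrays is unknown: the columns do not share a distribution, and all bound values end in the same 2 digits. The precision is limited by the 1 array per pool. Of 33297 probe sets, 19460 list 1 gene symbol, 1754 several and 12083 are not in the annotation table. Only the first kind was named, keeping the probe set with the highest mean per gene. Gene IDs of all 125 ZNF genes matched RefSeq (GRCh38.p14), with 0 symbols changed. The build behind the probe annotation remains not given in the sources used here. Genes entered the comparisons at a mean above 3.84, the 95th percentile of 480 tissue-restricted genes. The steps were tested on simulated data with planted changes larger than 2-fold, random noise and a constant gap between arrays. That test does not show how reliable 2-fold calls are in these arrays.

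The members, lists and groups were chosen with earlier results of these data known. Named are the 12 highest and 12 lowest for bound minus unbound, the 5 highest and lowest against total RNA, the 4 on each side of the threshold, the extremes of each list and whole short lists. ZNF genes named for a promoter sequence, shared probe sets or several probe sets were chosen after their values were seen. Python 3.11.15, pandas 2.3.3, numpy 2.4.6, statsmodels 0.14.6 and matplotlib 3.10.9 were used.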

Additional observations from a re-analysis of the deposited data

How the results depend on the processing

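Each source has 1 array, so every value describes 3 arrays, has no error and cannot be told from array-to-array variation. No paired analysis was possible because each group has 1 array and no result comes from a test. A comparison of KRAB with other ZNF genes was not run, with all of its alternatives, because protein sequences were not used here.

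The median bound minus unbound difference of -0.38 stayed between -0.43 and -0.28 under every centred alternative, and was 0.88 as deposited, where the overall gap between arrays remains in the value. The following percentages of ZNF genes differ by more than 1.5 times from those reported. As deposited, 1.6% were lower and 40.0% higher in bound than unbound, 0.8% lower and 56.0% higher in bound than total, and 5.6% lower in unbound than total RNA. In unbound minus total RNA, 0.8% were lower with quantile normalization, 0.8% lower and 28.8% higher with lowess, and 1.6% lower and 28.8% higher with centring on genes at 6.0 or more, where 0.8% were lower in bound than total RNA. With a threshold of 5.0, 1.28% of 234 genes were lower in bound than total RNA. With a threshold of 7.0, of 48 genes 8.33% were higher in bound than unbound, 6.25% lower and 2.08% higher in bound than total, and 8.33% lower and 8.33% higher in unbound than total RNA. Counted at 1.5-fold, 40.0% were lower and 8.8% higher in bound than unbound, 8.8% lower and 8.0% higher in bound than total, and 8.0% lower and 40.0% higher in unbound than total RNA. At 3-fold these were 8.0% and 0%, 0.8% and 0%, and 0.8% and 9.6%. A stricter fold gives fewer genes by construction. The cause of the other changes was not tested. Shares over all genes were not computed at 1.5-fold, at 3-fold or with centring on genes at 6.0 or more. Shares over other genes were not computed at thresholds of 5.0 and 7.0. The percentages at these settings therefore describe ZNF genes alone and cannot be set against other genes.

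Of 61 named ZNF genes, 25 changed sign as deposited, 39 changed side of 2-fold and 7 kept both. The 4 that went from 2-fold lower, when centred, to above 0 were ZNF143 at 0.20, ZNF257 at 0.093, ZNF512 at 0.060 and ZNF486 at 0.25. Quantile normalization changed the sign of 3 and the side of 3, lowess of 1 and 2, the mean of probe sets of 0 and 2, and the other centring of 0 and 0.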
